A study of Mus musculus with 12 samples.

Results

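The subject is a set of 9 axon guidance genes in mouse mammary epithelium: the ligands Slit2, Slit3, Ntn1 and Ntn4 and the receptors Robo1, Robo2, Unc5b, Unc5c and Neo1. They were found by their symbols among the 27179 genes of the count table, and 9 of 9 passed the filter on low counts that left 14903 genes. Basal and luminal epithelial cells were taken from female mice of 2 strains. Controls carried the floxed gene alone, Foxp1(fl/fl), and the others carried MMTV-cre/Foxp1(fl/fl), in which Cre is driven by the mouse mammary tumour virus promoter and removes floxed Foxp1 sequence. Both strains therefore share the floxed alleles, and no Cre is named for the controls. Each of the 4 groups had 3 biological replicates, and the labels give no age, sort gate or pooling. The genes were chosen by name with their values in these 12 libraries already known. Each adjusted p below therefore gives a gene's place in a fit over all 14903 genes and is not independent support.

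Slits are large secreted ligands, and Robo proteins are their receptors on the cell surface. Netrins are secreted ligands related to laminins. Netrin-1 signals through neogenin (Neo1), DCC and the Unc5 receptors, and netrin-4 also binds laminin in basement membranes. These cues were first studied in growing axons, where Slit-Robo signalling repels and netrin can attract or repel. In the mammary gland, Slit-Robo signalling is known to hold the basal and luminal layers together and to restrain branching through Robo1 in basal cells, and netrin-1 with neogenin is known from the terminal end bud.

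The genes lie at separate places in the genome except for the neighbours Robo1 and Robo2. On the GRCm38.p6 build of RefSeq, the release of the mm10 assembly named for the counts, Slit2 (Entrez 20563) spans chromosome 5, 47981291 to 48307735. Slit3 (Entrez 20564) spans chromosome 11, 35121456 to 35708507, and Ntn1 (Entrez 18208) lies on the same chromosome at 68209364 to 68386826. Robo1 (Entrez 19876) and Robo2 (Entrez 268902) lie on chromosome 16 at 72027518 to 73047491 and at 73891976 to 75447443, on opposite strands. Ntn4 (Entrez 57764) and Unc5b (Entrez 107449) lie on chromosome 10 at 93641049 to 93745972 and 60762594 to 60831581. Unc5c (Entrez 22253) is on chromosome 3 at 141465564 to 141834924, and Neo1 (Entrez 18007) on chromosome 9 at 58874679 to 59036614. Among the 9 genes only Unc5c shares exon bases with another annotated gene, 118 bases with the antisense RNA Gm15688 in GENCODE vM21. The labels name no strand setting, so reads in those bases cannot be assigned to either.

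The promoters of Slit2, Robo1 and Slit3 are shown because Slit2 and Robo1 had lower values together in basal knockout-labelled libraries while Slit3 had higher ones. Each run holds the 250 bases before a start site in RefSeq's GRCm38.p6 table, 5′ to 3′ on the gene's plus strand, with any TATAAA in capitals. Slit2 is chr5:47982905-47983154, Robo1 is chr16:72662899-72663148 and Slit3 is chr11:35121206-35121455. The Slit3 run ends where the gene span given above begins. Those of Slit2 and Robo1 lie inside their gene spans, before an annotated start site downstream of the first, and the counts do not tell which start site was used.
Slit2: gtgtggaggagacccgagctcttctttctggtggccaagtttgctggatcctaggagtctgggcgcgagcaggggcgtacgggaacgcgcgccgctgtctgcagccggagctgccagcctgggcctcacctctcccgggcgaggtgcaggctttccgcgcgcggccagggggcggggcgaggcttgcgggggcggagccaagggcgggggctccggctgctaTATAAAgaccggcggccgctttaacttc
Robo1: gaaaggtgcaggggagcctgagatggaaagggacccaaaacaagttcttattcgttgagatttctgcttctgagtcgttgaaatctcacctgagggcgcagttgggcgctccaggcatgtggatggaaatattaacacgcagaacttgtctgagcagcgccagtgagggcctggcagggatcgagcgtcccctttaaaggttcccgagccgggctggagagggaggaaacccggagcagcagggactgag
Slit3: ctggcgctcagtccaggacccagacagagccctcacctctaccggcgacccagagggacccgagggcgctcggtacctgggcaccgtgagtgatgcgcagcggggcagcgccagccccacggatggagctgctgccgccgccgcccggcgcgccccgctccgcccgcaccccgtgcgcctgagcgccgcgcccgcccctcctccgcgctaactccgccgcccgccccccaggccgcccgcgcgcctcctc
Slit2 had a TATAAA that began 28 bases before that start site, and among the 8 guidance genes with a sequence in that table it was 1 of 8. On both strands, 12.4% of all 32851 promoters held this motif in the same window. GC content was 69.6% for Slit2, 56% for Robo1 and 78.8% for Slit3, against a median of 52.4% over all promoters.

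As Foxp1 is a forkhead factor, 4 forkhead-type motifs were searched on both strands: the letters TGTTTAC, the variant TATTTAC, the variant TGTTTAT and lastly TATTTAT. They can overlap each other, and they were picked after the Slit2 promoter had been read. In the 300 bases from 250 before to 50 after the start site, 1 of the 8 genes held a match, Slit2, and 15% of all promoters did. Its 2 matches overlap, in capitals below, within bases 6 to 28 of the transcript at chr5:47983160-47983182.
Slit2 site: tgggctTATTTATTTACggagcg
The matches are letters in a window, and no binding was measured here.

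Libraries held 9769361 to 15449513 counts. Levels are given as CPM, counts scaled to a common library size after TMM, a factor per library that evens out differences in composition. Foxp1, the targeted gene, was at 160 to 221 CPM in basal controls and 193 to 284 CPM in basal knockout-labelled libraries, and at 62.0 to 82.3 CPM against 150 to 161 CPM in luminal cells. In luminal cells Foxp1 was called higher under the knockout label by edgeR (log2 fold 1.07, SE 0.19, adjusted p = 0.0161). It was not called in basal cells (log2 fold 0.22, SE 0.19). These gene-level counts can include reads outside the deleted part and were not lower under the knockout label. The libraries are therefore called knockout-labelled, and every direction rests on the labels. The cell fractions carried the markers of their labels. Summed CPM of 8 basal markers, led by Krt14 and Krt5, was 15000 to 20400 in basal and 125 to 738 in luminal libraries, and 10 luminal markers, led by Krt8 and Krt18, gave 10400 to 23600 CPM in luminal libraries. In basal cells these luminal markers summed to 782 to 1270 CPM in controls and 1320 to 1930 CPM under the knockout label, which do not overlap. Fibroblast markers, 12 genes led by Dcn and Col3a1, summed to 506 to 686 CPM in basal controls and 1890 to 3080 CPM in basal knockout-labelled libraries, and none of the 12 was at 0 in a basal library. In luminal cells they summed to 77.5 to 430 CPM in controls and 133 to 390 CPM under the knockout label. Pericyte markers (Notch3, Pdgfrb and 5 others) ranged from 71.1 to 97.7 CPM in basal controls and 85.4 to 227 CPM in basal knockout-labelled libraries, and Schwann cell markers (Mbp and 4 others) from 35.5 to 97.3 and 84.6 to 117 CPM. Endothelial markers (8 genes led by Vwf and Pecam1) overlapped in basal cells but not in luminal cells, at 98.8 to 168 CPM in controls and 70.2 to 86 CPM under the knockout label. Immune markers (Cd68, Csf1r and 4 others) overlapped in both. Salivary transcripts, led by Bpifa2 and Amy1, took 10900 to 120000 CPM in luminal controls and 19800 to 83700 CPM in luminal knockout-labelled libraries, and 984 to 4060 and 184 to 4540 CPM in the basal groups. Although these sums overlap, the salivary gene Smr3a was called lower under the knockout label in luminal (13300 ± 10400 to 18.8 ± 12.2 CPM, SD, n = 3, adjusted p = 0.00321) and basal cells (435 ± 353 to 7.33 ± 4.4 CPM, adjusted p = 0.0312), and Prol1 was called higher in luminal cells (adjusted p = 0.031). In such bulk samples, fewer cells of a type and less RNA per cell cannot be told apart.

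The first comparison set luminal against basal cells in the controls, to show where each gene is normally read. Slits, Robos, Ntn4, Unc5b and Neo1 were lower in luminal cells, and Ntn1 alone of the 9 was higher. In all, 8 of 9 genes passed an adjusted p under 0.05 in edgeR's quasi-likelihood test with Benjamini-Hochberg adjustment, 1 higher and 7 lower, and this is the test behind every adjusted p unless another is named. Over all genes 33.2% were called, 16.3% higher and 16.8% lower. The 8 called genes had groups that did not overlap, which held for 44.1% of all genes.

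Slit2, a ligand of Robo1 and Robo2, was read at 41.2, 43.1 and 51.3 CPM in replicates 1, 2 and 3 of the basal controls. Its luminal control values were 2.06, 1.85 and 2.01 CPM. The groups were far apart (log2 fold -4.51, SE 0.23, adjusted p = 1.23e-06). Slit3, a second ligand of the same family, was at 83.8, 91.3 and 41.3 CPM in basal and 0.468, 2.13 and 3.62 CPM in luminal ones, a log2 fold of -5.12 (SE 0.63; adjusted p = 0.000106). Basal replicate 3 was the lowest of its group for Slit3, and the luminal values spread over a wider ratio than those of Slit2.

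Robo1 was at 99.9, 89.4 and 62.9 CPM in basal and 28.3, 21.4 and 16.8 CPM in luminal ones, with log2 fold -1.92 (SE 0.23) and adjusted p = 9.26e-05. Robo2, the related receptor, was at 43.0, 43.0 and 15.3 CPM in basal controls and at 1.5, 0.74 and 1.11 CPM in luminal ones, with log2 fold -4.91 (SE 0.45) and adjusted p = 1.59e-05. Both receptors were read mainly in basal cells, and Robo2 was close to the lower limit of reading in luminal controls, with 35 counts over the 3 libraries.

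Ntn1 ran the other way. It was at 8.4, 11.5 and 11.6 CPM in basal and 176, 217 and 137 CPM in luminal ones, with log2 fold 4.07 (SE 0.26) and adjusted p = 2.39e-06. Ntn4, the laminin-binding netrin, was at 44.5, 40.5 and 16.1 CPM in basal and 6.64 to 10.5 CPM in luminal ones, with log2 fold -2.05 (SE 0.36) and adjusted p = 0.00124. The netrins were thus split by cell type, Ntn1 luminal and Ntn4 basal.

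The netrin receptors differed less. Unc5b, which is also expressed in vessels, was at 62.1 to 82.3 CPM in basal and 15.1 to 34.6 CPM in luminal ones, with log2 fold -1.59 (SE 0.42) and adjusted p = 0.0132. Leaving out luminal control replicate 2 ended this call (adjusted p = 0.0505). Neo1, the neogenin receptor, was at 109 to 169 CPM in basal and 66.1 to 100 CPM in luminal ones, with log2 fold -0.81 (SE 0.21) and adjusted p = 0.0114. Unc5c was scarcely read, with 6, 15 and 6 counts in basal and 6, 1 and 2 counts in luminal controls, and was not called (log2 fold -1.52, SE 0.64, adjusted p = 0.0875). It was called without luminal control replicate 1 (adjusted p = 0.0319).

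**Figure D1:**
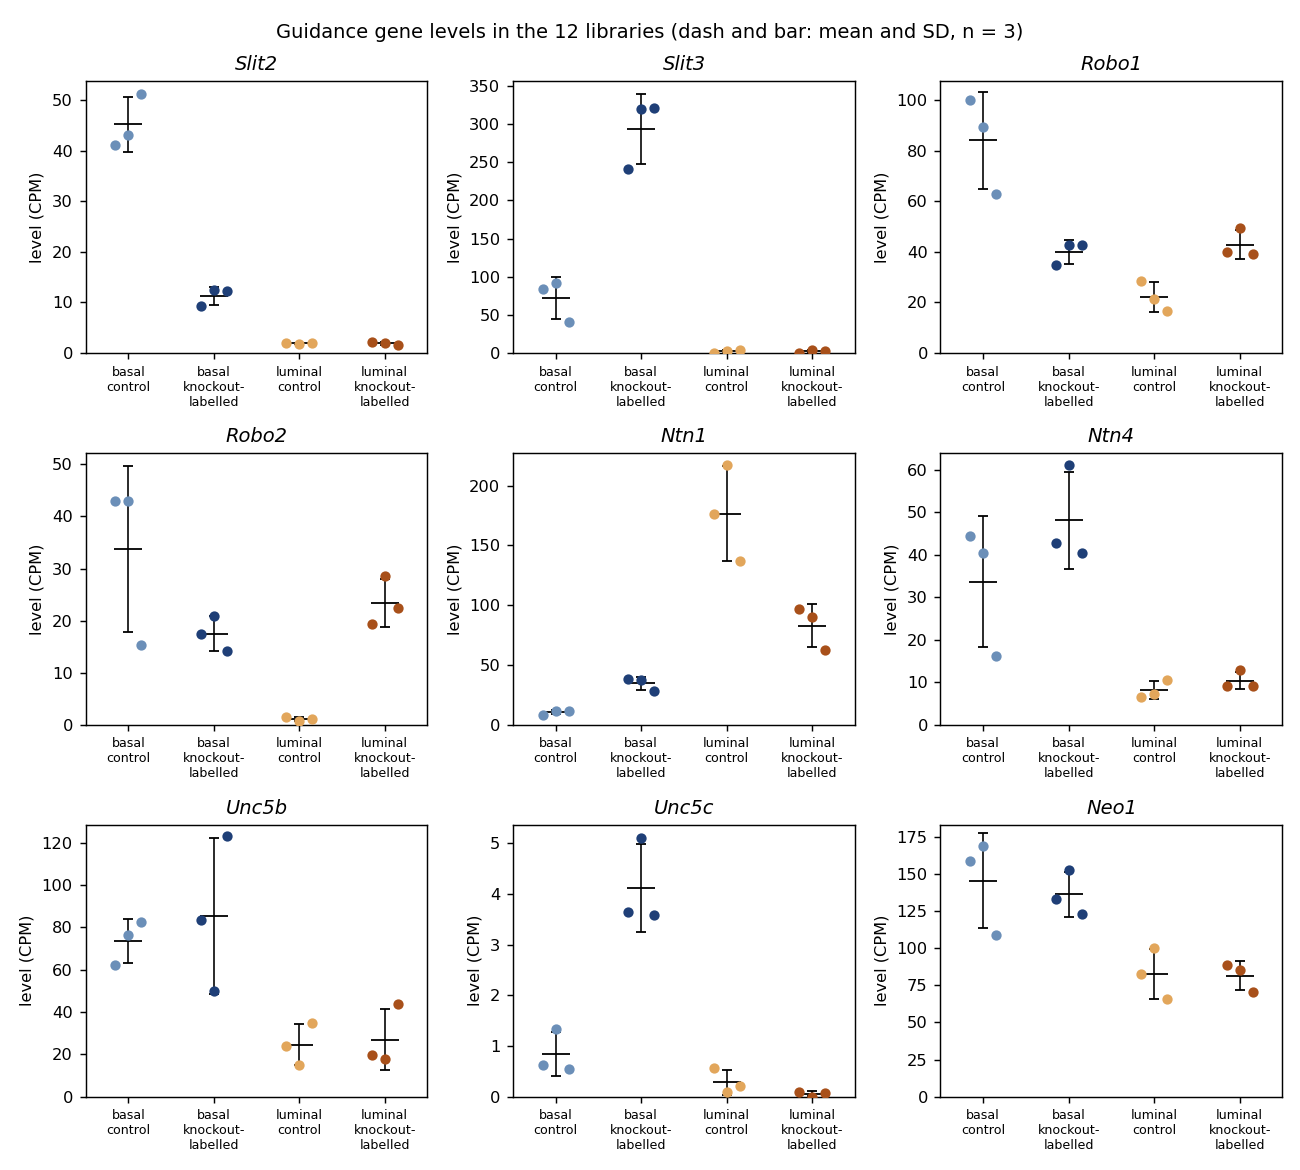
Level in CPM (vertical axis, from 0) of each of the 9 guidance genes in the 4 groups (horizontal axis). Points are the 3 libraries of a group, and the dash and bar are their mean and SD; Slit2 falls from 41.2 to 51.3 CPM in basal controls to 9.32 to 12.5 CPM under the knockout label, and Robo2 goes from 0.74 to 1.5 CPM to 19.4 to 28.5 CPM in luminal cells.

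Dividing by the gene length in the count table puts the genes on a common scale of CPM per kilobase. In basal controls Neo1 had the highest mean, 19.7 CPM per kilobase, followed by Slit3 at 14.4, Ntn4 at 14.0, Unc5b at 12.5 and Robo1 at 11.1, and each of these neighbours overlapped in their 3 libraries. Slit2 at 5.65 was below Robo1 without overlap, and then came Robo2 at 4.2, Ntn1 at 1.83 and Unc5c at 0.0902. In luminal controls Ntn1 led at 30.8 CPM per kilobase and stood clear of Neo1 at 11.2. Unc5b at 4.17, Ntn4 at 3.37 and Robo1 at 2.93 overlapped their neighbours, and Slit3, Slit2, Robo2 and Unc5c lay between 0.0307 and 0.415. So the ligand with the highest level per length was a Slit in basal controls and a netrin in luminal controls, although Slit3 and Ntn4 in basal controls overlapped.

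The second comparison asked what differs in basal cells under the knockout label. Slit2 fell and Ntn1 rose, and these 2 of 9 genes passed the test, against 0.671% of all genes (0.611% higher and 0.0604% lower). Values of Slit3 and Unc5c were about as far apart in fold but did not pass, and Robo1 missed narrowly. Groups did not overlap for 5 of 9 genes (Slit2, Slit3, Robo1, Ntn1 and Unc5c), against 12.4% of all genes. Because the genes were chosen with these values in view, nothing is read from those counts.

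Slit2 went from the control values given above to 9.32, 12.5 and 12.2 CPM in knockout-labelled replicates 1, 2 and 3. Its lowest control was over 3 times its highest knockout-labelled library, and its level was 3.98-fold lower (log2 fold -1.99, SE 0.20, adjusted p = 0.00143). Leaving out any single library kept the call, with adjusted p from 0.0022 to 0.0124. Slit3 was at 241, 319 and 321 CPM under the knockout label, all above the highest control at 91.3 CPM. It did not pass (log2 fold 2.02, SE 0.52, adjusted p = 0.125).

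The Slit pair can also be read as a share, which is set within each library and does not depend on depth. Per length, Slit2 made up 23.5%, 22.8% and 43.7% of Slit2 plus Slit3 in basal controls and 2.36%, 2.4% and 2.32% in basal knockout-labelled libraries. The knockout-labelled shares were within 0.1 percentage points of each other. Summed Slit level was 20.1 ± 4.76 CPM per kilobase in basal controls and 60.2 ± 9.41 under the knockout label (SD, n = 3), with Slit3 the larger part in each library. Neither the share nor the sum was tested.

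Robo1 was at 34.6, 42.6 and 42.6 CPM in basal knockout-labelled libraries, below the lowest control at 62.9 CPM. Its log2 fold was -1.07 (SE 0.23) with an adjusted p of 0.0648, and it passed without basal control replicate 3 (0.0272) or luminal control replicate 3 (0.0409). Robo2 was at 17.5, 20.8 and 14.1 CPM, and overlapped the controls because of replicate 3 at 15.3 CPM (log2 fold -0.95, SE 0.36, adjusted p = 0.392). Without that control it passed (log2 fold -1.3, adjusted p = 0.0465). Basal control replicate 3 was the lowest of its group for 6 of the 9 genes, and its chi-square per degree of freedom against replicates 1 and 2 was 79.8 and 98.8, against 11.7 between those. Pairs within the other groups ran from 30.7 to 137 on that measure, a range that holds the 79.8 and 98.8 of replicate 3. The measure covers all genes and does not place replicate 3 for the 9 guidance genes. Its Robo2 value of 15.3 CPM stood against 43.0 and 43.0 CPM in the other basal controls. For 3 of the 9 genes it was the highest of its group.

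Ntn1 rose to 38.1, 37.7 and 28.4 CPM, with every value above the highest control at 11.6 CPM. The log2 fold was 1.72 (SE 0.24, adjusted p = 0.00933), and the call was lost without basal control replicate 1 (adjusted p = 0.0679). Ntn4 was at 42.8, 61.2 and 40.4 CPM and overlapped the controls (log2 fold 0.52, SE 0.34, adjusted p = 0.847). Unc5c had 36, 57 and 33 counts, 3.58 to 5.11 CPM, against 0.554 to 1.34 CPM in controls (log2 fold 2.27, SE 0.54, adjusted p = 0.0985). The receptors Unc5b, at 49.8 to 123 CPM (log2 fold 0.21, SE 0.41), and Neo1, at 123 to 153 CPM (log2 fold -0.09, SE 0.21), overlapped their controls and were not called.

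Higher values of Slit3, Ntn1 and Unc5c came in the same libraries as more fibroblast marker RNA. From control to knockout-labelled libraries the mean of Slit3 changed by a ratio of 4.07, of Ntn1 by 3.3 and of Unc5c by 4.9, and the fibroblast marker sum by 4.15. Of the 12 fibroblast markers 2 were called higher, Pdgfra (log2 fold 2.41, SE 0.36, adjusted p = 0.0138) and Dpp4 (2.85, SE 0.53, adjusted p = 0.0395), and 11 had groups that did not overlap. For each 100 CPM of fibroblast markers, Slit3 stood at 16.1, 18.1 and 6.02 CPM in basal controls and 11.3, 10.4 and 17.0 CPM under the knockout label, so these ratios overlapped. In luminal libraries the same ratio was lower, at 0.604, 1.09 and 0.841 CPM in controls and 0.525, 0.918 and 1.04 CPM under the knockout label. Ntn1, the guidance gene read mainly in luminal cells, was higher in the basal libraries that also had more luminal marker RNA. Of the 10 luminal markers 0 were called there by edgeR and 5 had an unadjusted p under 0.05. Krt19 (log2 fold 1.59, SE 0.32, adjusted p = 0.0501) and Krt18 (0.88, SE 0.30) were higher among these. So were Cldn3 (0.93, SE 0.27) and Prlr (1.27, SE 0.40), while Elf5 was lower (-1.24, SE 0.53). Log2 folds of the 10 luminal markers ran from -1.24 to 1.59, with a median of 0.47. The part of fibroblast, luminal or other RNA in the values of Slit3, Ntn1 and Unc5c was not tested. Slit2 and Robo1 were lower in the libraries where fibroblast markers were higher.

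**Figure D2:**
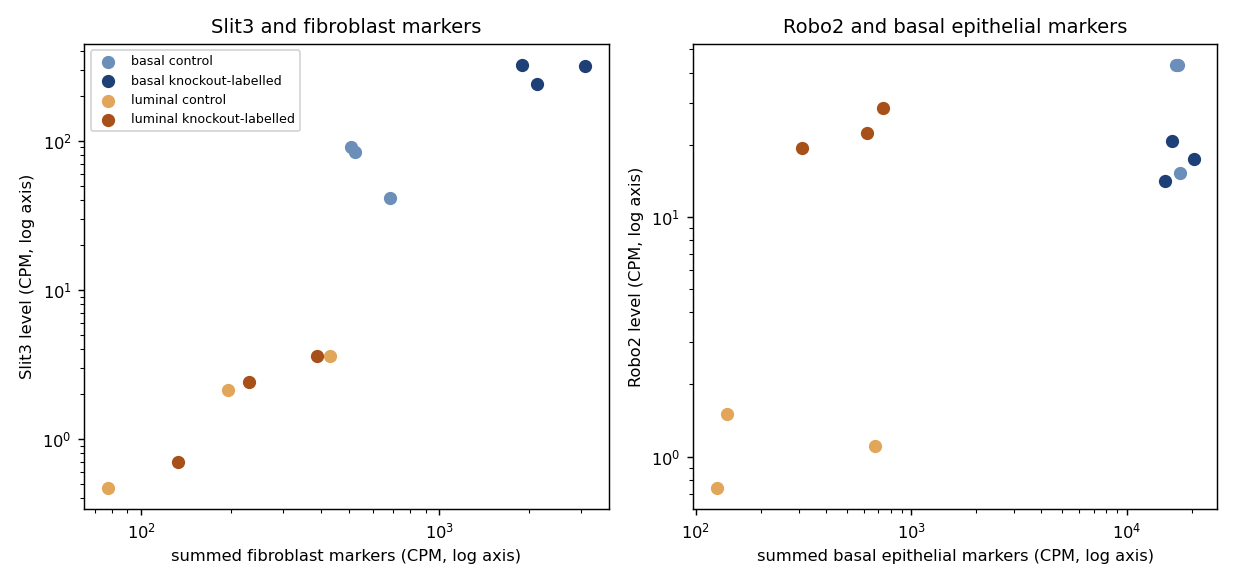
Left, Slit3 level against summed fibroblast markers, and right, Robo2 level against summed basal epithelial markers, each point being 1 of 12 libraries and all axes being CPM on log scales. Basal knockout-labelled libraries lie highest on both left axes (Slit3 241 to 321 CPM, markers 1890 to 3080 CPM), while on the right the luminal knockout-labelled libraries have Robo2 at 19.4 to 28.5 CPM with basal markers at 309 to 738 CPM.

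In luminal cells the same comparison gave a different set. Robo2 rose about 20.9-fold, Robo1 rose and Ntn1 fell, so that 3 of 9 genes were called, 2 higher and 1 lower, against 3.03% of all genes (2.21% higher and 0.819% lower). The 3 called genes were also the 3 whose groups did not overlap, against 25.4% of all genes. With the replicate number as a block, which the paired deviations of these libraries allow, 1097 genes were called in place of 451, and the same 3 guidance genes passed.

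Robo2 was at 19.4, 28.5 and 22.4 CPM under the knockout label, with 195, 319 and 336 counts, against 16, 8 and 11 counts in the controls. Every knockout-labelled library was more than 12 times the highest control, and the log2 fold was 4.38 (SE 0.44, adjusted p = 0.000812). No left-out library ended the call (adjusted p up to 0.00819). Robo1 was at 39.8, 49.3 and 39.0 CPM, above the highest control at 28.3 CPM (log2 fold 0.95, SE 0.23, adjusted p = 0.0494). That call is at the threshold. It held only without basal control replicate 3 or luminal control replicate 1, and was lost on leaving out each of the other 10 libraries (adjusted p = 0.0556 to 0.176).

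Per length, Robo1 made up 94.2% to 96.8% of Robo1 plus Robo2 in luminal controls and 64.7% to 68.5% in luminal knockout-labelled libraries. In basal cells this share was 68.9% to 81.4% in controls and 67.8% to 76.2% under the knockout label. The luminal knockout-labelled share thus lay nearer to the basal ranges than to that of the luminal controls.

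Robo1 and Robo2 are basal genes in the controls, so basal marker RNA in the luminal fraction is given beside them. The 8 basal markers summed to 125, 139 and 681 CPM over the luminal controls and 309, 619 and 738 CPM over the luminal knockout-labelled libraries, which overlap. Mean Robo2 in luminal knockout-labelled libraries was 134% of its mean in basal knockout-labelled libraries and mean Robo1 was 107%, while the basal marker sum was 3.23%. Of the 8 markers 1 was called higher in luminal cells, the transcription factor Trp63 (log2 fold 2.80, SE 0.58, adjusted p = 0.0253). Krt14 stood at 36.3 to 282 CPM in luminal controls and 208 to 393 CPM under the knockout label (log2 fold 1.40, SE 0.65, not called). Krt5 had a log2 fold of 0.22 (SE 0.99). Acta2, the smooth muscle actin of myoepithelium, stood at 12.3 to 23.8 CPM in luminal controls and 11.5 to 17.3 CPM under the knockout label. Log2 folds of the 8 basal markers ran from -2.17 to 2.80, with a median of -0.30. Fibroblast markers overlapped between the luminal groups, with 0 of 12 called. Of the 8 endothelial markers, whose sums were lower under the knockout label, 0 were called and 5 had an unadjusted p under 0.05, such as Pecam1 (log2 fold -1.33, SE 0.45). The part of basal or endothelial RNA in the luminal values was not tested.

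Ntn1 fell from the control values above to 96.5, 89.9 and 62.7 CPM, all below the lowest control at 137 CPM (log2 fold -1.09, SE 0.23, adjusted p = 0.0274). The call was lost without luminal control replicate 1 or 2 or knockout-labelled replicate 2 or 3 (adjusted p = 0.0819 to 0.118). Ntn1 was still the guidance gene with the highest mean per length in these libraries, at 14.5 CPM per kilobase against 11 for Neo1, though their libraries overlapped. Ntn4 was at 9.18 to 12.8 CPM and overlapped the controls (log2 fold 0.35, SE 0.36, adjusted p = 0.671).

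The Slits, low in luminal cells to begin with, were not called there. Slit2 was at 2.19, 1.97 and 1.60 CPM (log2 fold -0.05, SE 0.22), and its 62 control and 68 knockout-labelled counts bound how small a change could be read. Slit3 was at 0.698, 3.58 and 2.40 CPM (log2 fold 0.13, SE 0.63). Unc5c had 9 counts in the controls and 2 under the knockout label. Scaled by depth this is a ratio of 0.193, with an exact 95% interval of 0.0203 to 0.933 for counting error only, and it was not called (adjusted p = 0.237). Unc5b (log2 fold 0.15, SE 0.41) and Neo1 (log2 fold -0.03, SE 0.21) overlapped between the luminal groups and were not called.

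**Figure D3:**
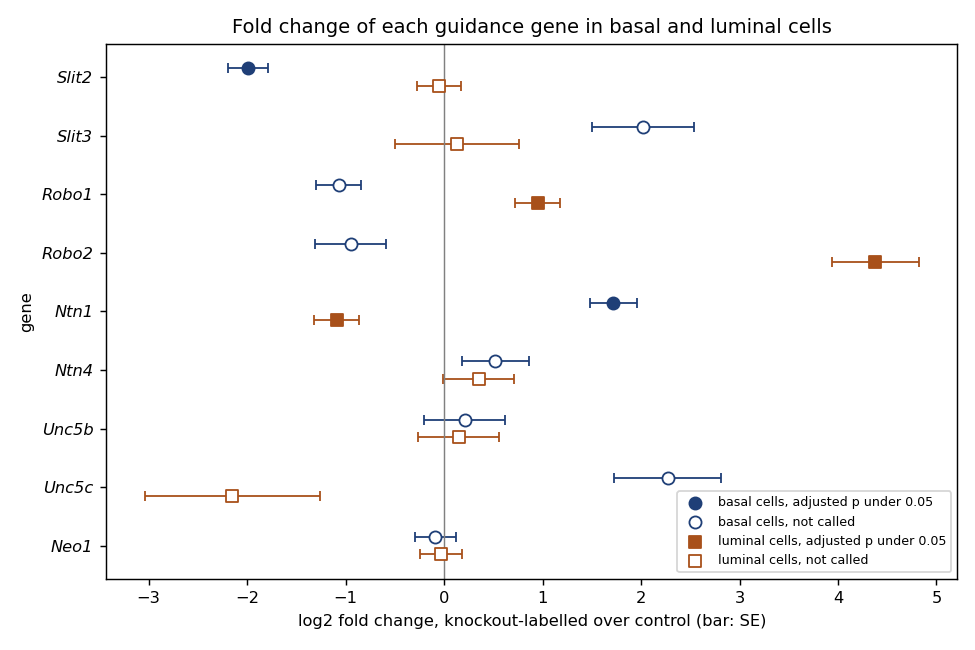
Log2 fold change, knockout-labelled over control (horizontal axis, bar: SE), of each guidance gene (vertical axis) in basal cells (circles) and luminal cells (squares), filled where adjusted p is under 0.05. Robo1, Robo2 and Ntn1 lie on opposite sides of 0 in the 2 cell types, with Robo2 at -0.95 in basal and 4.38 in luminal cells and Ntn1 at 1.72 and -1.09.

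Whether the knockout-label effect differed between the cell types was tested as an interaction in the same fit. It was called for 4 of 9 genes, Slit2, Robo1, Robo2 and Ntn1, against 0.275% of all genes (0.0939% higher and 0.181% lower). Relative to basal cells, the luminal effect on Robo2 was higher by 5.33 on the log2 scale (SE 0.57, adjusted p = 0.00484), on Robo1 by 2.02 (SE 0.32, adjusted p = 0.0322) and on Slit2 by 1.95 (SE 0.29, adjusted p = 0.026). For Ntn1 the difference was -2.81 (SE 0.33, adjusted p = 0.00522). Calls of Robo2 and Ntn1 held without any single library. Those of Slit2 and Robo1 were each lost on leaving out 8 of 12 libraries, with adjusted p up to 0.087 and 0.0928; for both these were the basal controls 1 and 2, the 3 basal knockout-labelled libraries, luminal control 2 and luminal knockout-labelled 2, with luminal control 1 for Slit2 and luminal knockout-labelled 3 for Robo1. Unc5c had the second largest difference in size, -4.43 (SE 1.04), and was not called (adjusted p = 0.104), nor was Slit3 (-1.89, SE 0.81, adjusted p = 0.472). Ntn4, Unc5b and Neo1 had differences of -0.16, -0.07 and 0.07.

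Beside these differences, the cell types stood nearer for Robo1, Robo2 and Ntn1 under the knockout label. Luminal against basal log2 folds in knockout-labelled libraries were 0.10 (SE 0.23) for Robo1 and 0.42 (SE 0.36) for Robo2, neither called, and 1.26 (SE 0.23, adjusted p = 0.00135) for Ntn1. They share no library with the control values of -1.92, -4.91 and 4.07. The change from those values is the interaction given above and not a separate result. Slit3 was at -7.02 (SE 0.67, adjusted p = 1.84e-05). Unc5c had 126 basal and 2 luminal counts, a level 75.4-fold higher in basal libraries with a counting interval of 20.4 to 629. Slit2 was at -2.56 (SE 0.21), Ntn4 at -2.21 (SE 0.36), Unc5b at -1.65 (SE 0.42) and Neo1 at -0.74 (SE 0.21), all called lower. In this comparison 7 of 9 genes were called, 1 higher and 6 lower, against 40.6% of all genes (19.2% higher and 21.4% lower). The same 7 had groups that did not overlap, against 54.9% of all genes. The Neo1 call was lost without luminal knockout-labelled replicate 3 (adjusted p = 0.0598).

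**Figure D4:**
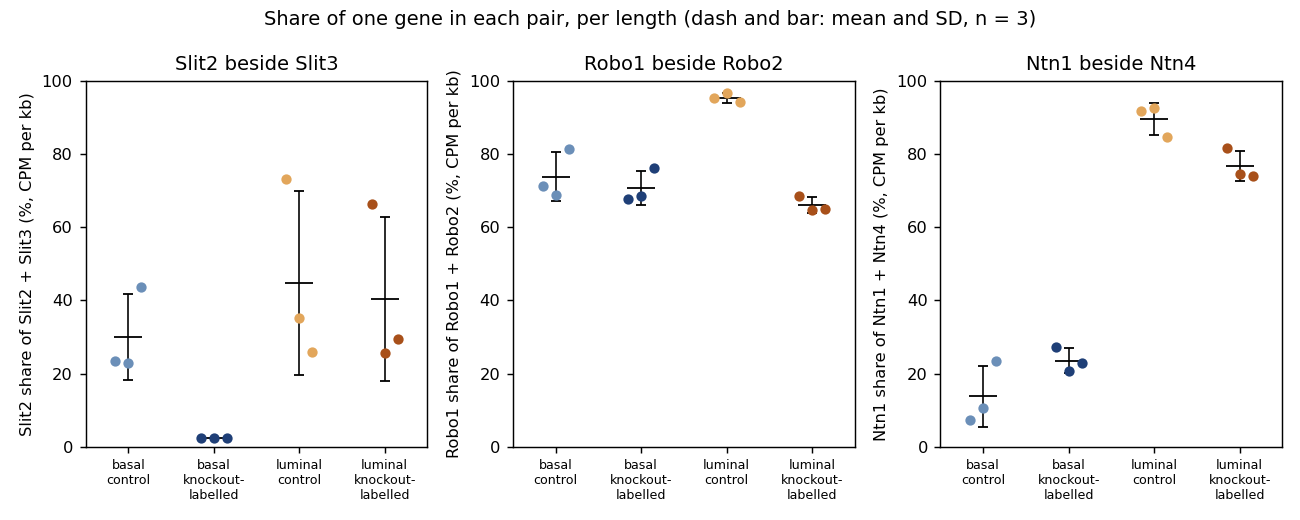
Share of the first gene in each pair (vertical axis, percent of the pair's CPM per kilobase) in the 4 groups (horizontal axis), with points for the 3 libraries and dash and bar for mean and SD. Slit2 makes up 2.32% to 2.4% of the Slit pair in basal knockout-labelled libraries, and Robo1 makes up 94.2% to 96.8% of the Robo pair in luminal controls against 64.7% to 68.5% under the knockout label.

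The netrin pair was described in the same way. Ntn1 made up 7.35%, 10.7% and 23.3% of Ntn1 plus Ntn4 per length in basal controls and 20.6% to 27.2% in basal knockout-labelled libraries, which overlap through replicate 3. In luminal cells the share was 84.6% to 92.6% in controls and 74.1% to 81.6% under the knockout label. These shares were not tested.

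Other genes of the pathway were read from lists of ligands, receptors and coreceptors, of signalling and processing genes, and of mammary genes linked to Slit-Robo. Several relatives of the 9 genes were hardly read at all. Over all 12 libraries, Dcc, the classical netrin-1 receptor, had 3 counts, Ntn5 had 2, Unc5d had 4, Robo3 had 12 and Slit1 had 47, and none of them passed the filter. Robo4, a receptor of endothelium, was at 1.97 to 7.94 CPM in basal and 0.842 to 6.74 CPM in luminal controls, and was not called in either knockout-label comparison.

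In basal cells 0 of 18 tested ligands, receptors and coreceptors were called by edgeR, 5 had an unadjusted p under 0.05 and DESeq2 called 1, Ntng1, lower. Ntng1, a membrane-anchored netrin, had the lowest p of the list in edgeR (log2 fold -2.21, SE 0.53, adjusted p = 0.103), followed by Flrt2 (1.37, SE 0.46). The list's median log2 fold was -0.08, beside -0.01 over all tested genes. Of 30 signalling and processing genes 0 were called, 0 had an unadjusted p under 0.05 and DESeq2 called 0, with Srgap2 (log2 fold -0.30, SE 0.16), a GTPase-activating protein that binds Robo, and Dock1 (-0.34, SE 0.18) lowest in p. Their log2 folds ran from -0.42 to 0.47, a narrower range than that of the ligands and receptors.

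In luminal cells 3 of 18 tested ligands, receptors and coreceptors were called higher and 0 lower. Flrt2 and Flrt1 belong to a family of membrane proteins that bind Unc5 receptors, and Gpc1 is a heparan sulfate proteoglycan that binds Slit. Flrt2 was at 2.25 ± 0.79 CPM in controls and 31.6 ± 7.40 CPM under the knockout label (SD, n = 3), with log2 fold 3.81 (SE 0.51) and adjusted p = 0.00454. This call held without any single library. Flrt1 was at 0.48 ± 0.174 and 3.36 ± 2.13 CPM, with log2 fold 2.79 (SE 0.56) and adjusted p = 0.0227. It did not pass without luminal control replicate 1 or 2 or knockout-labelled replicate 3, or with only the luminal groups in the fit (adjusted p = 0.069). Gpc1 was at 42.4 ± 3.89 and 148 ± 37.1 CPM, with log2 fold 1.8 (SE 0.34) and adjusted p = 0.0172. It did not pass without luminal control replicate 1 or 2 or knockout-labelled replicate 2 or 3 (adjusted p = 0.0546 to 0.082). The list's median was -0.22, beside -0.03 over all genes.

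Among 30 signalling genes 1 was called in luminal cells, Dapk1, a kinase that acts in death signalling by Unc5 receptors. It was at 216 ± 81.7 CPM in controls and 96.6 ± 9.01 CPM under the knockout label, with log2 fold -1.16 (SE 0.27) and adjusted p = 0.0432. The call was lost by library size alone (adjusted p = 0.0577), with only the luminal groups in the fit (0.102) and on leaving out 9 of 12 libraries, being kept without basal control replicate 3, basal knockout-labelled replicate 1 or luminal control replicate 3. With the replicate block Ptk2, focal adhesion kinase, was called higher too (log2 fold 0.6, adjusted p = 0.0306). In this luminal comparison 9 of the 30 had an unadjusted p under 0.05, and DESeq2 called Ptk2 higher and Dapk1, Evl and Srgap3 lower. The difference between cell types was not called for any gene of these lists by edgeR. For the ligands and receptors 3 of 18 had an unadjusted p under 0.05, with Gpc1 (1.95, SE 0.47) and Flrt2 (2.44, SE 0.66) lowest, and DESeq2 called those 2. For the signalling genes it was 5 of 30, with Dapk1 (-1.58, SE 0.38) and Srgap2 (0.64, SE 0.22) lowest, and DESeq2 called Dapk1 alone. By edgeR Dapk1 passed without luminal control replicate 3 (adjusted p = 0.0305). For the third list, described next, it was 2 of 5, and DESeq2 called 0.

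**Figure D5:**
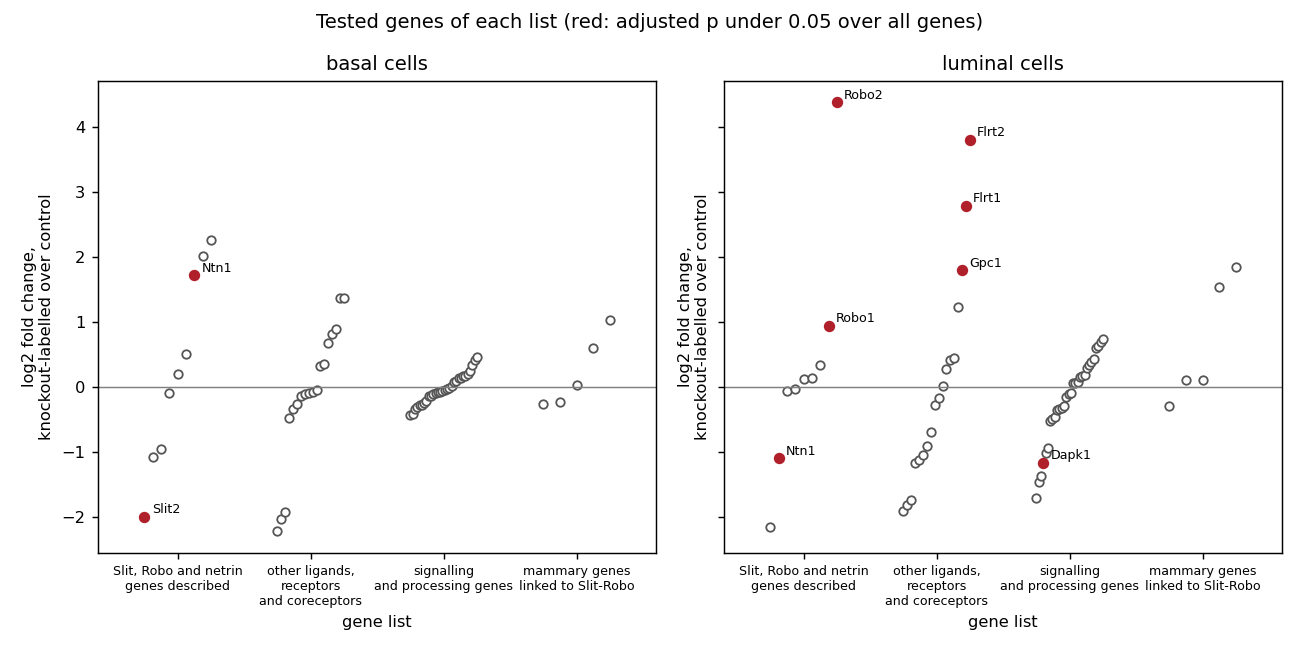
Log2 fold change, knockout-labelled over control (vertical axis), of every tested gene in 4 lists (horizontal axis) in basal and luminal cells, in red and named where adjusted p over all genes is under 0.05. Outside the 9 guidance genes there are 0 called genes in basal cells and 4 in luminal cells, Flrt2, Flrt1, Gpc1 and Dapk1.

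The third list held 6 genes that work on the mammary gland has tied to Slit-Robo signalling, and 5 were tested. None was called by edgeR in basal cells (1 with an unadjusted p under 0.05, 0 by DESeq2) or in luminal cells (2 with an unadjusted p under 0.05), where DESeq2 called 2 higher. Cxcl12, a chemokine, was at 267 ± 17.1 and 405 ± 170 CPM in basal groups (log2 fold 0.60, SE 0.37) and at 10.3 ± 4.82 and 30 ± 10.5 CPM in luminal groups (log2 fold 1.55, SE 0.39, adjusted p = 0.0591). It passed in luminal cells with the replicate block (adjusted p = 0.0143). Its receptor Cxcr4 had log2 folds of 1.04 (SE 0.38) and -0.29 (SE 0.38). Snai2, a basal transcription factor, was at -0.26 (SE 0.44) and 1.85 (SE 0.54), and DESeq2 called it with Cxcl12 in luminal cells. Ctnnb1, beta-catenin, was at -0.22 and 0.12, and Gpsm2, a spindle orientation protein, at 0.04 and 0.12. Insc, its partner in orienting the spindle, had 40 counts in all and was not tested.

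Between cell types of the controls, 11 of 18 ligands, receptors and coreceptors were lower in luminal cells and 1 was higher. The lowest adjusted p-values were those of Ntng2 (log2 fold -6.13, SE 0.59), a membrane-anchored netrin, Plxna1 (-1.26, SE 0.20), Adora2b (-3.05, SE 0.54), Gpc1 (-1.77, SE 0.34), Dag1, dystroglycan (-1.55, SE 0.36), and Lrrc4c, a partner of netrin-G1. Lrrc4c had 130 basal counts and 1 luminal count, a level 129-fold higher in basal cells with a counting interval of 22.8 to 5140. The list's median was -1.24, that of the 9 guidance genes -1.92, and that of all genes 0.04. Of 30 signalling genes 9 were lower and 2 higher, with a median of -0.09, which is close to the 33.2% called over all genes. Among them were the exchange factor Trio (-1.07, SE 0.22), the kinases Fyn (-2.37, SE 0.48) and Abl2 (-1.22, SE 0.28), Cap2 (-3.65, SE 0.74), the Ena/VASP protein Evl (-1.26, SE 0.37) and the adaptor Nck2, which was higher (0.93, SE 0.27). The replicate block, which the numbers of the control libraries allow, added Flrt1 (-1.26, adjusted p = 0.0381) as lower and Enah (1.18, adjusted p = 0.0444) and Rac1 (0.71, adjusted p = 0.0137) as higher. Snai2 (-6.34, SE 0.58), Cxcl12 (-4.70, SE 0.44) and Gpsm2 (-2.70, SE 0.46) were called lower too.

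In the knockout-labelled libraries 9 of 18 ligands and receptors were lower and 1 higher, and 8 of 30 signalling genes lower and 5 higher, against 40.6% called over all genes. The genes were not all the same. Gpc1 had log2 folds of -1.77 in controls and 0.18 here, Flrt2 -2.02 and 0.42, Dag1 -1.55 and -0.77, Sdc1 -1.12 and -0.63 and Dapk1 0.90 and -0.68, each called in the controls and not here. The interaction given above tests these differences; edgeR called none of them, and DESeq2 called those of Gpc1, Flrt2 and Dapk1. Ntng2 had 250 basal and 2 luminal counts, a level 150-fold higher in basal cells with a counting interval of 41 to 1240. Rgmb, a ligand of neogenin (-1.08, SE 0.19), Adora2b (-2.50, SE 0.48) and Mcam (-2.32, SE 0.50) came next among the receptors, and Trio (-1.62, SE 0.22), Cap2 (-5.68, SE 0.84) and Fyn (-3.17, SE 0.50) the signalling genes. In the third list 4 of 5 were lower, with Cxcr4 (-1.83, SE 0.39, adjusted p = 0.00344) beside Cxcl12, Snai2 and Gpsm2.

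Genes with patterns most like that of Slit2 were found by Pearson's r of log2 CPM over the 12 libraries, among 13241 genes. Among the 5 highest were Sorcs1, a sorting receptor (r = 0.979), Gm17019 (0.976), Rfng, which modifies Notch (0.973), and the calcium channel gene Cacna1g (0.97). Each of these had its highest mean in basal controls, such as Cacna1g at 74.4 ± 26.2 CPM against 26.2 ± 7.45 CPM in basal knockout-labelled libraries and 1.12 ± 0.191 CPM in luminal controls. With the mean of each cell type subtracted, the highest were Gpalpp1 (0.901), Mrpl17 (0.898), Sorcs1 (0.872), Dtx1 (0.86) and Ptprt (0.85). Sorcs1 was the gene found by both measures. The 12 libraries fall into the study's 4 groups, so these r values describe shared group differences and carry no test.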

How the data were processed

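RNA from 12 libraries of basal and luminal mammary epithelial cells was extracted with an RNeasy kit and prepared by the TruSeq RNA v2 protocol, per the labels' protocols. The deposited values are whole-number read counts per Entrez gene, not normalized by the authors, with a gene length in bases per the file headers. CASAVA 1.8.2, featureCounts and mm10 are named in the submitters' processing notes. No aligner, strand setting or annotation is named in the sources used here. The table has 27179 genes, of which 859 have no symbol, and it differed in 0 values from the 12 separate library files. No row is a total or an unassigned class.

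Counts were fitted with edgeR 4.0.16 in R 4.3.3 (quasi-likelihood F test, robust dispersion, TMM factors, the default filter by group) over all 12 libraries, as 4 group means with 8 residual degrees of freedom. The 14903 genes tested held at least 99.84% of the counts of each library. P-values were adjusted by Benjamini-Hochberg over these genes, and genes with an adjusted p under 0.05 are called. An SE is the size of the log2 fold divided by the square root of F. Where a group had 3 or fewer counts, a ratio of summed counts is given with an exact 95% interval.

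The guidance genes and the gene and marker lists were chosen with earlier results of these data known. Named genes are the 9 guidance genes, Foxp1, up to 6 called genes per list and comparison (or, with none called, the 2 of lowest p), the third list in full, the 2 most abundant markers of each list and the 5 genes most like Slit2 by each of 2 measures, for which log2 CPM had a prior count of 2 and an average of at least 1 was needed. Some markers (those called, Acta2, Krt19, Cldn3, Prlr and Elf5), Sdc1 and relatives with few reads are named besides, after their values were seen. Some genes that these rules select are not reported here. No set test was run.

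Libraries of the same replicate number were checked for shared deviations from their group means. The correlations were 0.36, 0.30 and 0.53 between luminal groups and 0.31, 0.42 and 0.47 between control cell types, where the numbers were taken to pair the libraries. No 2 replicates agreed within sampling noise (chi-square per degree of freedom 11.7 to 137). On simulated data the edgeR step found 75 of the 100 genes set to a 4-fold change and 13 of the 100 set to a 2-fold change in the basal comparison of 14727 genes, with 4 false calls, and 84 and 11 of 100 in the luminal comparison of 14758 genes, with 2 false calls. The changed genes were drawn only from those above a minimum mean count in that cell type, so recovery for genes with few counts was not measured. Alternatives were DESeq2 1.42.0, other size factors, no filter, a replicate block, fewer groups in the fit and leaving out each library.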

Additional observations from a re-analysis of the deposited data

Results flagged for a closer look

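In 4 of the 9 guidance genes the knockout-label effect differed between luminal and basal cells by the interaction test of the same edgeR fit. Over all 14903 genes 0.275% were called. The guidance genes were chosen with these values known, so nothing is read from that count. Calls of Robo2 and Ntn1 held without any single library, while those of Slit2 and Robo1 were each lost without most single libraries. The difference, luminal minus basal on the log2 scale, was 5.33 for Robo2, 2.02 for Robo1, 1.95 for Slit2 and -2.81 for Ntn1. For Robo1, Robo2 and Ntn1 the fitted folds had opposite signs in the 2 cell types. The basal folds of Robo1 (adjusted p = 0.0648) and Robo2 (adjusted p = 0.392) were not called by edgeR. For Slit2 the basal log2 fold was -1.99 beside -0.05 in luminal cells. All 3 libraries showed the direction in each called fold. Summed fibroblast and luminal markers were higher in the basal knockout-labelled libraries than in basal controls, and their part in the Ntn1 difference was not tested.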

How the results depend on the processing

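Across the 12 fits without a library and the other settings, no called fold of a guidance gene changed sign, and 751 of 799 fold values of these genes kept their side of the threshold, with 38 calls lost and 10 gained. DESeq2 called 5 guidance genes in basal cells in place of 2, adding Slit3 (adjusted p = 0.0167), Robo1 (0.00164) and Unc5c (0.0134), and it added Unc5c to the interaction calls (0.0414). Slit3 also passed with only the 2 basal groups in the fit (adjusted p = 0.0295). In luminal cells 1 guidance gene, Robo2, was called in place of 3 when libraries were scaled by size alone (Robo1 0.0564, Ntn1 0.0579) and when only the 2 luminal groups were fitted (Robo1 0.0896, Ntn1 0.08). Size alone moved the median over all genes from 0.03 to 0.15 between cell types under the knockout label, where Neo1 lost its call (adjusted p = 0.0523). The cause of these changes was not tested.

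Over all genes the basal count of 100 became 59 by library size alone, 236 with the replicate block, 414 by DESeq2 and 151 with 2 groups. The luminal count of 451 became 1097 with the block, 1093 by DESeq2 and 199 with 2 groups, and the interaction count of 41 became 106 with the block and 360 by DESeq2. In basal cells same-numbered libraries correlated at -0.09, 0.36 and 0.13, and between cell types under the knockout label at 0.09, 0.42 and 0.42, so there the number is only shared; the block added Robo1 in basal cells (adjusted p = 0.0393) and changed no other guidance gene's call in any of the 5 comparisons. Of the other listed genes it added Gpc1 to the interaction calls (log2 1.85, adjusted p = 0.0341) and Dapk1, Sdc1 and Sos1 as lower in luminal cells under the knockout label (adjusted p = 0.0323, 0.0255 and 0.0352). Leaving out a library gave 17 to 142 calls in basal and 127 to 716 in luminal cells, 10 to 86 for the interaction, and 3533 to 5211 and 4765 to 6720 between cell types in controls and under the knockout label. The basal count fell by over 1.5 times without basal control 1 or 2, any basal knockout-labelled library, luminal control 1 or luminal knockout-labelled 2. The luminal count did so without luminal control 1 or 2 or luminal knockout-labelled 2 or 3, and was highest without basal control 3. The interaction count moved by over 1.5 times without each library except luminal knockout-labelled 1, upward without basal control 3 or luminal control 3. Guidance genes called were then 1 to 4 in basal cells, 1 to 3 in luminal cells, 2 to 4 for the interaction, 7 to 9 between control cell types and 6 to 7 under the knockout label. With 3 libraries a group, 13 and 11 of 100 simulated 2-fold changes were recovered in the basal and luminal comparisons, so smaller changes than those called are mostly below reach. These rates do not cover genes with few counts, such as Unc5c, which were not among the genes given a change.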
